A study of Rattus norvegicus with 6 samples.

Results

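The matrix metalloproteinases (MMPs), the ADAM and ADAMTS proteases and the tissue inhibitors of metalloproteinases (TIMPs) were followed in newborn rat ovaries cultured for 24 h with or without connective tissue growth factor (CTGF). A member was every array probe set whose single platform symbol begins with Mmp, Timp, Adam or Adamts followed by a digit. This gave 54 probe sets for 53 genes, out of 27342 probe sets in all and 14324 genes with a symbol. Adamts3 alone had more than 1 probe set, and the one with the higher signal was used. The genes comprise 20 MMPs, 4 TIMPs, 18 ADAMs and 11 ADAMTS proteases. All 53 matched a RefSeq gene by Entrez number. Adam10, Adam12, Adam19 and Adamts13 were looked for and had no probe set with a symbol.

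The CTGF group holds 3 samples of whole ovaries from female Sprague-Dawley rats at postnatal day 0, kept for 24 h in medium with human CTGF at 500 ng/ml. The control group holds 3 samples of ovaries of the same strain, sex and age, kept for the same time without treatment. Each sample is a pool of 2 to 3 ovaries from different pups of a litter, and each of 3 culture date batches has 1 CTGF and 1 control sample. The comparison asks how CTGF acts on the transcripts of the ovary before its follicles have assembled.

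Proteases of these families cut proteins outside the cell. MMPs are zinc enzymes that are mostly made as inactive precursors and degrade collagens, fibronectin and other matrix proteins, and TIMPs block their active site. ADAMs sit in the cell membrane and release growth factors and receptors from it, while several lack a working active site and serve in adhesion. ADAMTS proteases are secreted and bind to the matrix, where they trim procollagens and cleave proteoglycans such as versican. In the ovary these enzymes are known for the remodeling of basement membranes and stroma around follicles, and Adamts1 in the mouse for its role in ovulation.

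Values are log2 signals as the authors deposited them, and a difference is CTGF minus control. In these values the mean of the CTGF and the control array of a probe set was the same in the 3 batches to within 0.005. Each pair of arrays therefore lies symmetrically about the mean of the gene, and it cannot be told which array of a pair moved. For the same reason the 2 groups fail to overlap exactly where all 3 batches go in 1 direction. The array medians lay between 5.82 and 5.84. A level for background was set at 5.61, the 95th percentile of 44 probe sets of genes of the eye, pancreas, pituitary, kidney, gut, lung, heart and liver, and 52.8% of all probe sets lay above it. All 9 oocyte markers looked for, such as Ddx4 and Dazl, and all 6 measured pregranulosa markers, such as Wt1 and Kitlg, were above this level.

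Of the 53 genes, 22 had a mean signal above background. They were 3 of the 4 TIMPs, 5 of 20 MMPs, 6 of 18 ADAMs and 8 of 11 ADAMTS proteases. The MMPs were the secreted gelatinase Mmp2 (mean log2 signal 10.10), the membrane-anchored Mmp14 (9.85), Mmp15 (7.58) and Mmp16 (8.23), and Mmp11 (8.10), which furin activates inside the cell. Mmp9, the other gelatinase, had a mean log2 signal of 4.59, near the median of the silent organ genes at 4.49. Mmp17, Mmp19, Mmp21, Mmp23 and Mmp28 were not above background either, with mean log2 signals between 3.94 and 5.27. Most of the ADAMs of sperm and epididymis lay there too, 10 of 12, with Adam1a (6.62) and Adam18 (6.0) the exceptions.

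A cluster of 9 measured MMP genes lies on rat chromosome 8, in the order Mmp13, Mmp12, Mmp3, Mmp1, Mmp10, Mmp8, Mmp27, Mmp20 and Mmp7. It holds collagenases, stromelysins, the macrophage elastase Mmp12, the enamel protease Mmp20 and matrilysin, and no protein-coding gene of another family lies within it in the RefSeq annotation of GRCr8. That annotation has 10 MMP genes there, and Mmp1b was not analysed here. None of the 9 had a signal above background, and their mean log2 signals ran from 3.90 to 5.25. Promoter sequences of RefSeq, GRCr8, were at hand for 33 of the 53 genes, including all 9 of the cluster. In the 250 bases before the start site, the AP-1 motif TGANTCA, which reads the same on both strands, stood in 7 of the 9 cluster promoters (77.8%), in 0 of the 24 other members and in 6.34% of all 33469 promoters. The TATA motif TATAAA, on either strand, stood in 8 of the 9, in 5 of the 24 and in 12.9% of all promoters. The GC box GGGCGG, on either strand, showed the opposite pattern, with 0 of the 9, 14 of the 24 and 30.5% of all promoters. Of the 14 members above background with a promoter, all outside the cluster, 11 had a GC box and 0 the AP-1 motif. Of the 10 members outside the cluster and not above background, 3 had a GC box and 0 the AP-1 motif. The usual AP-1 site has G or C as its middle base, and the only match in Mmp20, TGAATCA, has A there. A match is a description of the letters in the window and says nothing of a bound factor.

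The last 100 bases before the start site are shown for the 7 cluster genes with the AP-1 motif, because the 2 MMPs called in the comparison, Mmp13 and Mmp3, are among them. Capitals mark the AP-1 and the TATA motif.
Mmp13 (GRCr8, chr8:12782729-12782828, plus strand): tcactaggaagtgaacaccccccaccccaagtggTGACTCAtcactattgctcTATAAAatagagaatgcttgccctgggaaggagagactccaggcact
Mmp12 (GRCr8, chr8:12866552-12866651, plus strand): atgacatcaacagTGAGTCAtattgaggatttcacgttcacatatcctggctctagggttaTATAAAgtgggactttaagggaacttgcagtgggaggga
Mmp3 (GRCr8, chr8:12925181-12925280, plus strand): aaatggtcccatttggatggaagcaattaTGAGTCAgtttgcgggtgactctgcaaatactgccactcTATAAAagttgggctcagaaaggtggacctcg
Mmp1 (GRCr8, chr8:12943353-12943452, plus strand): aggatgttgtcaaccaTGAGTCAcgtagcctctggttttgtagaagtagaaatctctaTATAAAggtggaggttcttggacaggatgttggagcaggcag
Mmp10 (GRCr8, chr8:12974607-12974706, plus strand): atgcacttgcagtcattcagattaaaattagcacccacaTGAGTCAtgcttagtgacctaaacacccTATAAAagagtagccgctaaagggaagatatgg
Mmp20 (GRCr8, chr8:13074179-13074278, plus strand): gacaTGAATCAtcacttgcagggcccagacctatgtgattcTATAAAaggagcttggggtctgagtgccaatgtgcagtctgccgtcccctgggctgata
Mmp7 (GRCr8, chr8:13132943-13133042, plus strand): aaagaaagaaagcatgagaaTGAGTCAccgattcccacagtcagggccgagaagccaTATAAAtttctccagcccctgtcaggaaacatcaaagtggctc
For contrast, the same stretch is given for Adamts1, which had a signal above background and the widest spread between batches of all members. Here capitals mark a TATA motif, from base -70, and a GC box, from base -63.
Adamts1 (GRCr8, chr11:38427385-38427484, minus strand): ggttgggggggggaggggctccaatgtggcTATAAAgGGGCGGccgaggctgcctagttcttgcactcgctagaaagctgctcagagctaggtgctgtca
Counted from the start site, the AP-1 motif of Mmp13 begins at base -66 and its TATA motif at base -47. In Mmp3 they begin at bases -71 and -32. Both genes thus carry the same pair of motifs within the same short stretch. So do the other cluster genes shown, none of which was called, and the pair does not set the called genes apart.

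Each gene was tested in a limma model fitted to the whole array, in which the culture batches were blocks. After Benjamini-Hochberg adjustment it called 0 of 27342 probe sets (0%), with no adjusted p below 0.994, and so 0 of the 53 genes. Without adjustment 915 probe sets (3.35%) had a p under 0.05 and are termed called from here on. Among the 53 genes 3 met it, Mmp13 higher and Mmp3 and Adam23 lower with CTGF, where 1.45% of all probe sets were called higher and 1.89% lower. The criteria of the methods ask for a ratio over 1.2 or under 0.83, a difference of more than 10 in un-logged signal and a p under 0.05. Applied here with the p of limma, they called 0 of the 53 and 0.435% of all probe sets. With the p of a 2-way test without moderation, 0 of the 53 were called too. Mmp13 had a ratio of 1.32 (un-logged means 38.3 with CTGF and 29 without) and Mmp3 one of 0.82 (34.5 and 42.1). With the p of limma, both missed only the difference. In the 2-way test without moderation, where their unadjusted p was 0.232 and 0.0514, they missed the p as well. The gene list of the paper itself includes smaller differences. The mean difference was above 0 in 28 genes and below it in 25, with a median of 0.00, as over all probe sets. Of the 53 genes 28, 25 and 24 were lower with CTGF in batches 1, 2 and 3. Of all 27342 probe sets it was 13391, 13993 and 12953, and counts by batch below are read against these. All 3 batches went in 1 direction in 10 genes, or 18.9%, 5 higher and 5 lower, against 20.3% of all probe sets (9.41% higher and 10.9% lower). Of the 22 genes above background 4 did so, where it was 19.1% of all such probe sets, and 1 was called, against 2.96%. The shares of protease and TIMP genes that went in 1 direction were thus close to those of the array as a whole. With 3 called genes of 53, the share called is too coarse to compare. The 95% interval of the difference lay within a 1.5-fold change in either direction for 51 of the 53 genes, the exceptions being Mmp13 and Adamts1. It lay within a 1.2-fold change for 28. Over all 27342 probe sets these counts were 27042 and 16870. For the 22 genes above background they were 21 and 11, and for the 14439 probe sets above background 14251 and 9086.

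**Figure D1:**
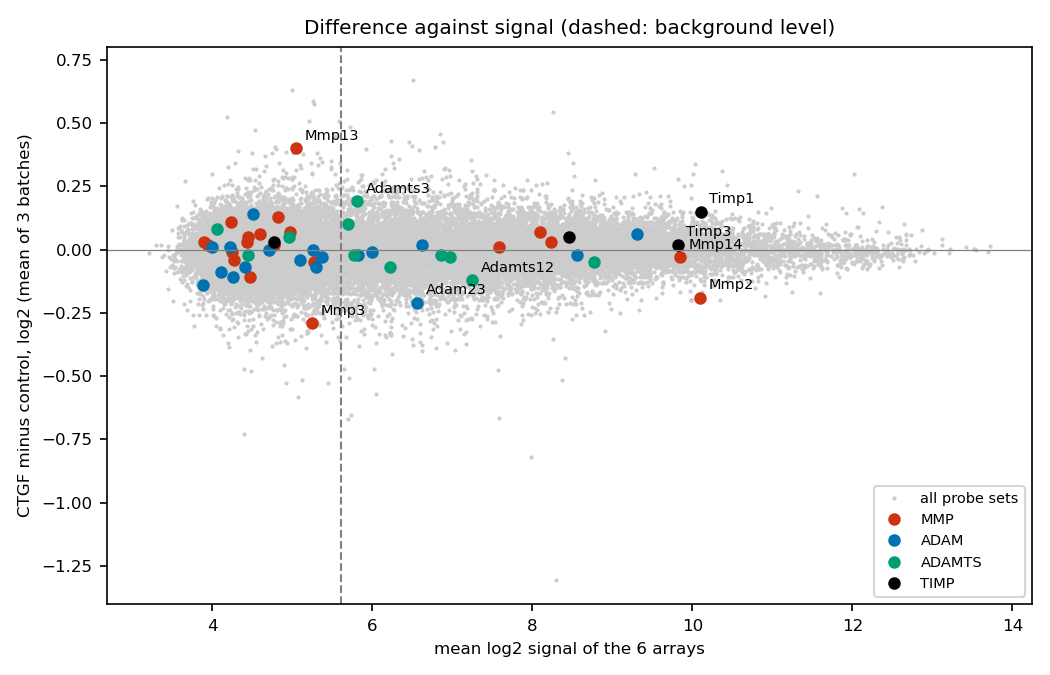
Mean difference of the 3 culture batches, CTGF minus control (log2, vertical axis), by mean signal (log2, horizontal axis), for every probe set (grey) and for the MMP (red), ADAM (blue), ADAMTS (green) and TIMP (black) genes. The 53 genes lie within the grey cloud between -0.29 (Mmp3) and 0.40 (Mmp13), and both of these are left of the background level at 5.61 (dashed).

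Mmp3, a stromelysin that degrades several matrix proteins and activates other MMPs, was lower with CTGF in each batch. Its log2 signals were 5.13, 5.15 and 5.04 in CTGF ovaries, against 5.37, 5.35 and 5.46 in control ovaries. The groups did not overlap, and the mean difference was -0.29 (95% interval -0.46 to -0.11, limma unadjusted p = 0.00725, adjusted p = 0.994). The call held without replicate 1, 2 or 3 in turn, with differences of -0.31, -0.33 and -0.22. All 6 of its signals were under the background level of 5.61. The 2-way test of the methods, without moderation, gave an unadjusted p of 0.0514.

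Mmp13, the main collagenase of rodents, went the other way. Its log2 signals were 5.09, 5.48 and 5.18 in CTGF ovaries and 5.01, 4.62 and 4.92 in control ovaries. The groups did not overlap, but the difference was 0.86 in batch 2 and only 0.08 and 0.26 in batches 1 and 3. The mean was 0.40 (95% interval 0.04 to 0.76, limma unadjusted p = 0.0338, adjusted p = 0.994). It was 0.17 without replicate 2, and without replicate 1, 2 or 3 the call was lost each time (unadjusted p = 0.0708, 0.136 and 0.168 in limma). These signals too were all below background.

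The other 7 genes of the cluster were not called. Mmp1 differed by 0.04, 0.02 and 0.02 in the 3 batches, and Mmp10, a stromelysin, by -0.07, -0.03 and 0.07. Mmp12 had a mean difference of 0.13 and Mmp8, the neutrophil collagenase, one of 0.11. Mmp7, matrilysin, had 0.09 and 0.21 in batches 1 and 2 and -0.63 in batch 3. Mmp20 and Mmp27 had means of 0.03 and -0.04. Over the 9 genes the median was 0.03, with 5 genes above 0 and 4 below.

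Of the proteases with a signal above background, Mmp2 and Mmp14 belong together, since Mmp14 and Timp2 form the complex on the cell surface that activates the Mmp2 precursor. The log2 signals of Mmp14 were 9.82, 9.90 and 9.80 in CTGF ovaries and 9.89, 9.81 and 9.91 in control ovaries. The groups overlapped, with a mean difference of -0.03 (95% interval -0.20 to 0.14). Mmp2 had log2 signals of 10.16, 10.04 and 9.81 in CTGF ovaries, against 10.04, 10.15 and 10.38 in control ovaries. Its difference was 0.12 in batch 1, -0.11 in batch 2 and -0.57 in batch 3, so that the groups overlapped and the mean of -0.19 had a 95% interval from -0.50 to 0.13. Of the other MMPs above background, Mmp11 had a mean difference of 0.07, Mmp16 of 0.03 and Mmp15 of 0.01, and none went in 1 direction in all batches. Mmp9, below background, had a mean difference of 0.06, and Mmp23 one of -0.05.

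All 4 TIMPs had a mean difference above 0, though none was called. Timp1, a secreted inhibitor of most MMPs, had log2 signals of 10.16, 10.29 and 10.12 with CTGF, against 10.07, 9.94 and 10.10 in control ovaries. The groups did not overlap, but the gap came mainly from batch 2, with differences of 0.09, 0.35 and 0.02. The mean was 0.15 (95% interval -0.05 to 0.36, limma unadjusted p = 0.117, adjusted p = 0.994). Timp2 differed by -0.06, 0.26 and -0.04 in the 3 batches, which is again a difference in batch 2 alone. Timp3, which is held in the matrix and also inhibits Adam17 and ADAMTS proteases, had log2 signals of 9.87, 9.84 and 9.78 in CTGF ovaries and 9.77, 9.80 and 9.86 in control ovaries, with a mean difference of 0.02 (95% interval -0.15 to 0.19). Timp4 differed by 0.03 in each batch at a mean log2 signal of 4.77, below background. The median of the 4 TIMPs was 0.15 in batch 2, against 0.06 in batch 1 and -0.01 in batch 3.

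Adam23 was the only gene above background that was called. Its product lacks protease activity and acts as an adhesion molecule, best known in neurons. The log2 signals were 6.43, 6.40 and 6.53 in CTGF ovaries, against 6.69, 6.72 and 6.58 in control ovaries. The groups did not overlap, with differences of -0.26, -0.32 and -0.05, and the mean was -0.21 (95% interval -0.40 to -0.02, limma unadjusted p = 0.0341, adjusted p = 0.994). The call was lost without replicate 1 (-0.18) and without replicate 2 (-0.16) and held without replicate 3 (-0.29). Adam11, a related ADAM of the nervous system without protease activity, also had lower values in each batch, with a mean difference of -0.07 at a log2 signal of 5.29, below background.

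The shedding ADAMs differed little. Adam17, which releases TNF and ligands of the EGF receptor from the membrane, had log2 signals of 9.42, 9.31 and 9.31 in CTGF ovaries, against 9.21, 9.32 and 9.32 in control ovaries. The difference was 0.21 in batch 1 and -0.01 in the others, and the mean was 0.06 (95% interval -0.12 to 0.24). Adam9 and Adam15 both had a mean difference of -0.02, and Adam28, first known from lymphocytes and below background here, one of -0.04. Of the 12 ADAMs of sperm and epididymis, 6 had a mean difference above 0 and 6 below, between -0.14 and 0.14, and none was called. Adam1a had a mean of 0.02. Adam2, a subunit of fertilin on sperm, had a mean of 0.14 and lay below background. Of these 12 genes 10 were lower in batch 2 and only 3 in batch 3.

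**Figure D2:**
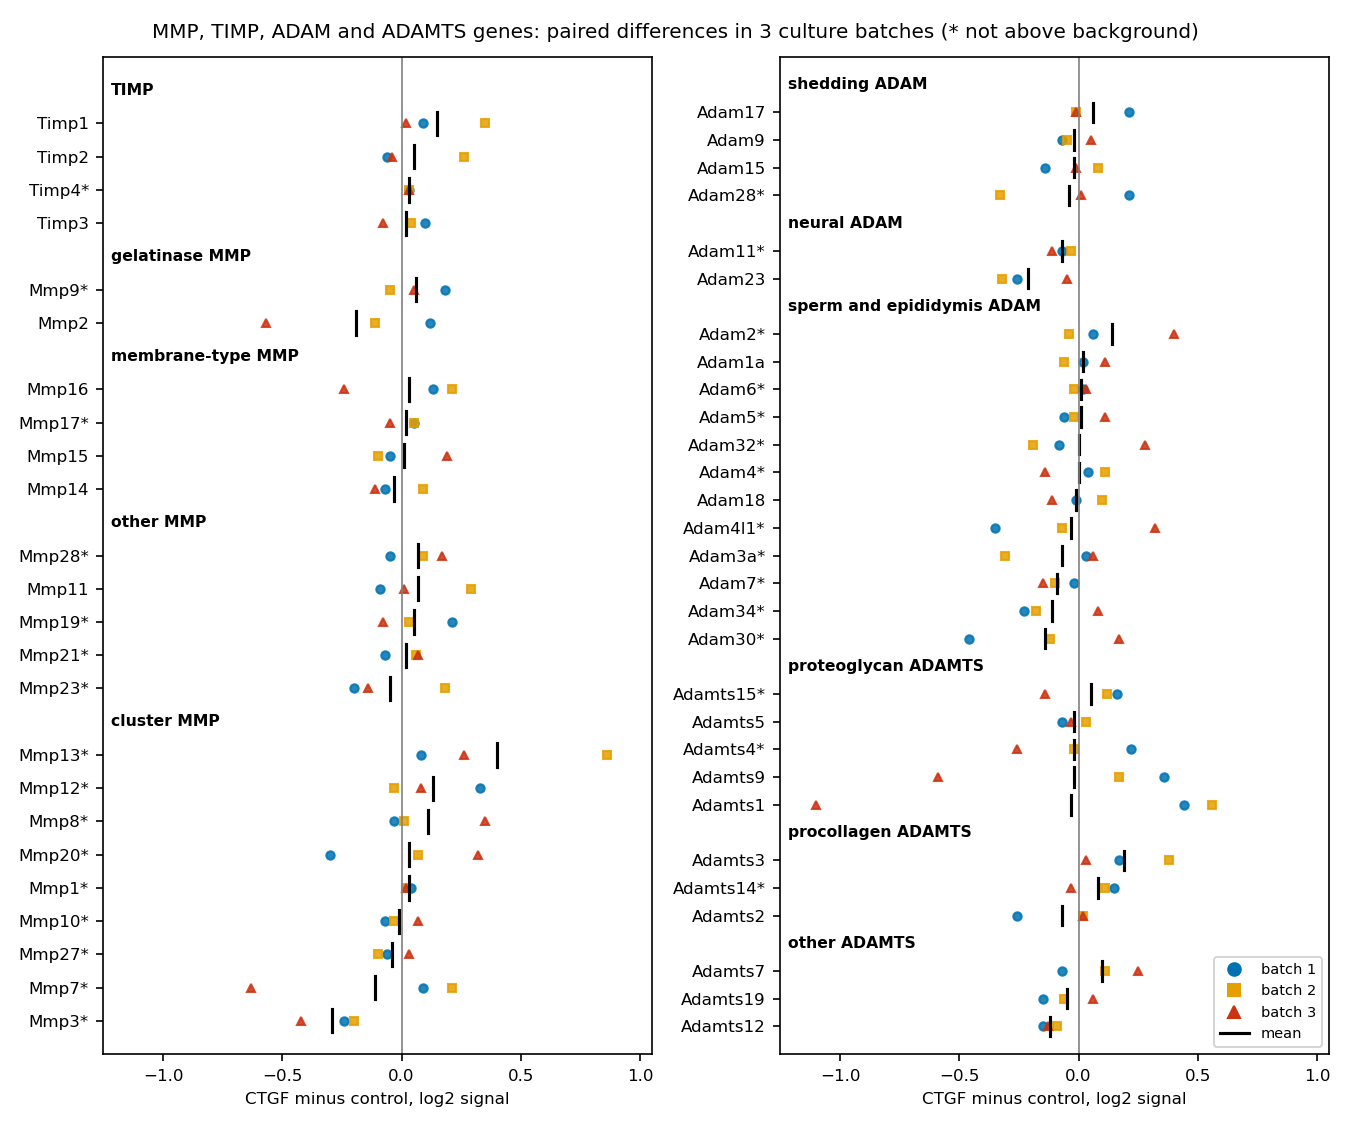
Difference between the CTGF and the control array (horizontal axis, log2 signal) of each of the 53 genes (vertical axis, by function group) in culture batches 1 (blue circles), 2 (orange squares) and 3 (red triangles), with the mean (black line) and an asterisk for genes not above background. Most means lie within 0.1 of 0, and the points of Adamts1 and Adamts9 in batch 3 lie far left of those of batches 1 and 2.

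Of the enzymes that trim procollagens, Adamts3 had higher values with CTGF in each batch. Its log2 signals were 5.89, 6.0 and 5.82 with CTGF and 5.72, 5.62 and 5.79 without, a mean difference of 0.19 (95% interval -0.01 to 0.40, limma unadjusted p = 0.0614, adjusted p = 0.994). A second probe set of the gene had differences of 0.17, 0.09 and -0.10 and a mean of 0.05. Centring of the array medians gave the first probe set 0.21 and an unadjusted p of 0.0456. Adamts2 had a mean difference of -0.07, and Adamts14, below background, one of 0.08.

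Adamts12, which cleaves the cartilage oligomeric matrix protein, had an even difference across the batches. Its log2 signals were 7.18, 7.21 and 7.19 in CTGF ovaries and 7.33, 7.30 and 7.32 in control ovaries. The groups were clear of each other, with differences of -0.15, -0.09 and -0.13 and a mean of -0.12 (95% interval -0.28 to 0.03, limma unadjusted p = 0.0963, adjusted p = 0.994). The 2-way test of the methods, which uses the spread of this gene alone, gave an unadjusted p of 0.0198 and an adjusted p of 1. Adamts7, a close relative, had a mean difference of 0.10, and Adamts19, known in the mouse from the embryonic ovary, one of -0.05.

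The ADAMTS proteases of proteoglycans had small means that hide the widest batch differences of all members. Adamts1 had log2 signals of 7.19, 7.25 and 6.42 in CTGF ovaries, against 6.75, 6.69 and 7.52 in control ovaries. It was thus higher with CTGF by 0.44 and 0.56 in batches 1 and 2 but had a difference of -1.10 in batch 3. The mean was -0.03 with a 95% interval from -0.78 to 0.72. Without replicate 3 it was 0.50 (limma unadjusted p = 0.00662, adjusted p = 0.781), and without replicates 1 and 2 in turn it was -0.27 and -0.33. Adamts9, which also cleaves versican, had log2 signals of 7.04, 6.95 and 6.57 with CTGF and 6.68, 6.78 and 7.16 without. Its differences were 0.36, 0.17 and -0.59, with the same sign as those of Adamts1 in each batch. Adamts4 and Adamts15, both below background, had -0.26 and -0.14 in batch 3, and all 5 genes of the group were lower in that batch, with a median of -0.26 against 0.22 and 0.12 in batches 1 and 2. Adamts5 had the smallest batch differences of the 5, -0.07, 0.03 and -0.03.

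**Figure D3:**
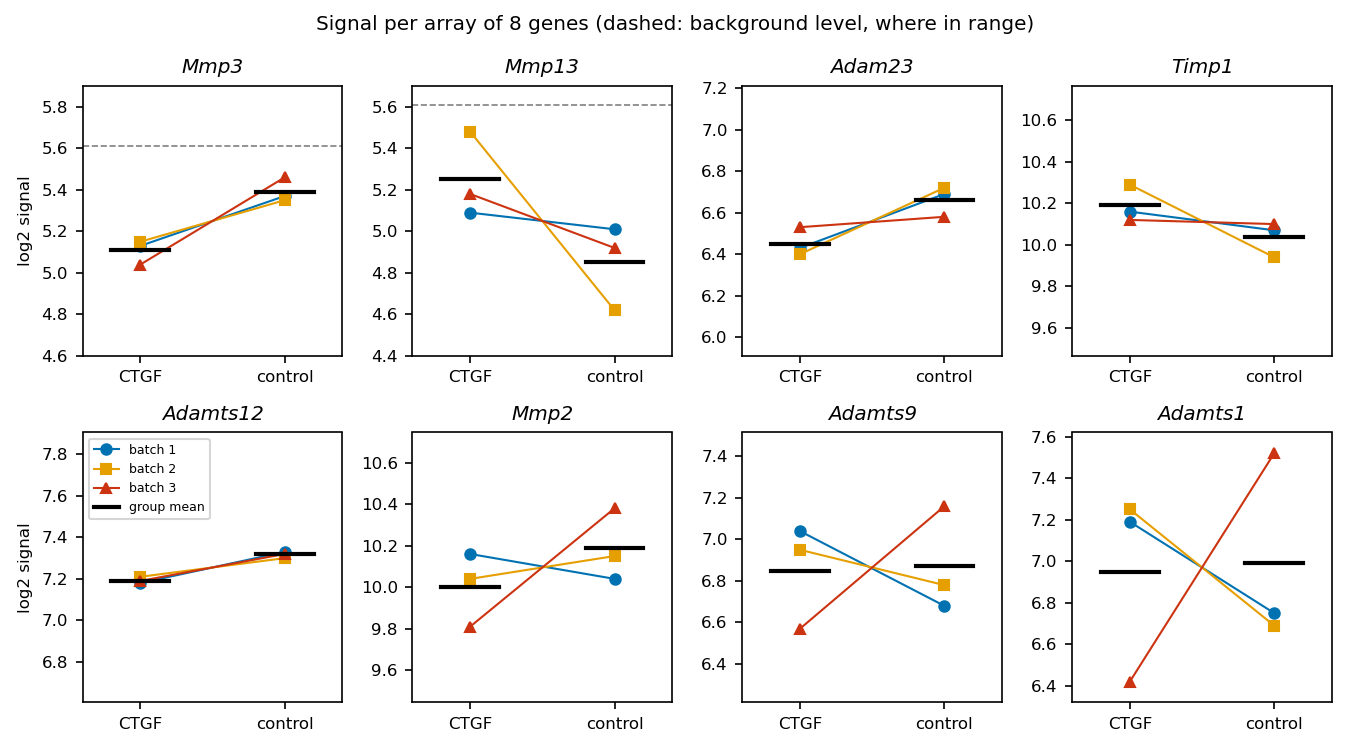
Log2 signal (vertical axis) of 8 genes in the CTGF and control arrays (horizontal axis), with a line for each culture batch, black bars for the group means and the background level of 5.61 (dashed) where it is in range. The lines of Mmp3, Mmp13, Adam23, Timp1 and Adamts12 run in 1 direction each, while batch 3 crosses the other batches in Adamts9 and Adamts1.

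Batch 3 stood apart in the stroma as well. All 6 stroma markers (Col1a1, Col3a1, Pdgfra, Tcf21, Dcn and Nr2f2) were above background, and all 6 were lower with CTGF in batch 3, against 0 in batch 1 and 1 in batch 2. Their summed un-logged signal was 5256, 5229 and 4301 in the CTGF ovaries of batches 1, 2 and 3 and 4810, 4848 and 5903 in the control ovaries. Pdgfra, a receptor of stromal cells, differed by -1.03 in batch 3. In pooled whole ovaries fewer cells of a type and less RNA per cell cannot be told apart, and the part of the stroma in the values of Adamts1, Adamts9 and Mmp2 was not tested. The 5 mast cell markers summed to a lower signal with CTGF in each batch, with sums of 392, 316 and 288 in CTGF ovaries and 416, 519 and 593 in control ovaries, though only Cpa3 of them was above background. Of these 5 markers 3 were called lower, Cpa3 (-0.82), Tpsab1 (-0.31) and Cma1 (-0.53), with limma adjusted p = 0.994 each. Of all probe sets 1.89% were called lower. Fcer1a and Ms4a2 were not called and were not lower in each batch. Their differences were 0.11, -0.26 and 0.00 for Fcer1a and -0.01, -0.44 and 0.01 for Ms4a2. The 3 measured endothelial markers also summed lower in each batch, at 246, 246 and 244 with CTGF against 266, 267 and 272. None of them was called, and each was higher in 1 batch. Sums of the macrophage, smooth muscle and surface epithelium markers went both ways across the batches. The median difference of the 9 oocyte markers was above 0 in batches 1 and 3 and below 0 in batch 2, at 0.12, -0.09 and 0.23. In batch 3 their summed signal was 8476 in CTGF ovaries and 7265 in control ovaries, and 1 of the 9 was lower. The oocyte receptor Kit was the only one of them called, with a mean difference of 0.19 (limma unadjusted p = 0.0326, adjusted p = 0.994). The part of these other cell types in the values of the proteases was not tested either.

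The substrates of the proteases followed the same batches. Versican (Vcan), the proteoglycan that Adamts1 and Adamts9 cleave, had differences of 0.30, 0.04 and -1.12 in batches 1, 2 and 3. Fibronectin (Fn1), cut by many MMPs, had 0.27, -0.21 and -0.57, and the collagen chain Col1a2 had 0.12, 0.22 and -0.50. Of 18 measured matrix substrates 16 were lower with CTGF in batch 3, against 5 in batch 1 and 3 in batch 2. Of the 15 that are not on the stroma list 13 were lower in batch 3. Over all 14439 probe sets above background 7399 were lower in batch 3. Matrix genes can vary together, so such counts are not counts of independent results. The laminin chain Lama1, of basement membranes, was an exception, with 0.07, 0.11 and 0.03. Fibrillin (Fbn1) and aggrecan (Acan, below background) had lower values in all 3 batches, each with a mean of -0.09. No matrix substrate was called, and the median of the list was -0.02.

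**Figure D4:**
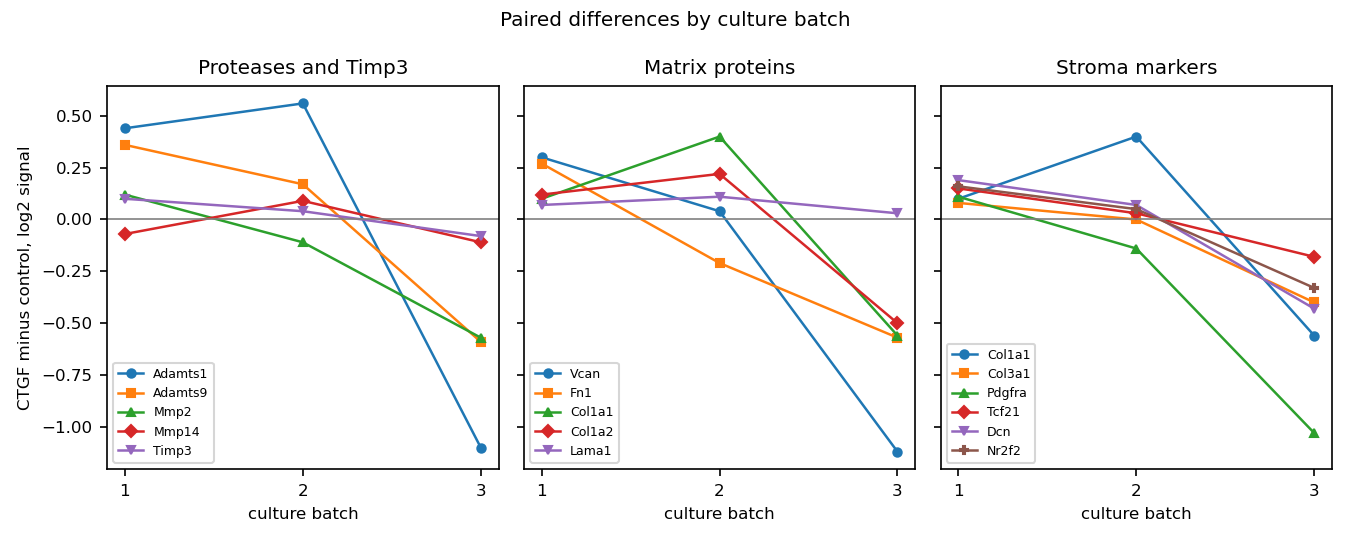
Difference between the CTGF and the control array (vertical axis, log2 signal) in culture batches 1, 2 and 3 (horizontal axis) for 5 proteases and inhibitors (left), 5 matrix proteins (middle) and the 6 stroma markers (right). Lines join the values of 1 gene and imply no order of the batches, and Adamts1, Vcan and Pdgfra lie at -1.10, -1.12 and -1.03 in batch 3.

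Across the 22 genes above background, the differences of batch 1 and batch 3 had a Pearson correlation of -0.69, and those of batches 1 and 2 one of 0.59. Over all 14439 probe sets above background these were -0.19 and 0.05. The correlation of batches 1 and 3 was -0.51 without Adamts1 and -0.12 without Adamts1, Adamts9 and Mmp2, so it rests on these 3 genes, while that of batches 1 and 2 was 0.51 without them. Genes are not independent replicates, and the 3 were set aside after their values had been seen.

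Counts of called genes in lists of other genes of matrix turnover are read against the 3.35% called over all probe sets, at which a list of this size holds few or none. Of 8 measured genes of the plasminogen system, 0 were called. Plat, Plau and the receptor Plaur, all above background, had mean differences of 0.02, 0.04 and -0.04. Plgrkt, a plasminogen receptor, had -0.01, -0.01 and -0.33. Of a list of 17 other genes, all proteases except heparanase (Hpse), 1 was called, Pappa, which cleaves an IGF-binding protein. It was lower by 0.31, 0.11 and 0.25 in the 3 batches, with a mean of -0.22 (95% interval -0.39 to -0.05, limma unadjusted p = 0.0187, adjusted p = 0.994) at a log2 signal of 5.54, just below background. Hpse had differences of -0.14, -0.06 and -0.20, and the procollagen-processing Tll1 had 0.13, 0.16 and 0.06, both below background. Furin, which activates precursors of ADAMs and membrane-type MMPs, had differences of 0.07, 0.11 and 0.11. Htra1, a secreted serine protease, had a mean of 0.13 and the stromal protease Fap one of -0.22, with -0.77 in batch 3. All 3 measured ADAMTS-like genes, which lack a protease domain, were below background, with means between 0.05 and 0.15. Of 17 membrane partners and targets 0 were called. Reck, a membrane inhibitor of MMPs, had differences of 0.20, 0.04 and 0.09 and was the only one of this list to be higher in all batches, and Kitlg, the ligand of the Kit receptor, which is shed from the membrane, had 0.14, 0.32 and -0.04. The median over this list was 0.02.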

How the data were processed

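Whole newborn rat ovaries were measured on Affymetrix Rat Gene 1.0 ST arrays, 3 CTGF and 3 control samples. The authors processed the scanner files with RMA and a GC-content adjustment in Partek and deposited 1 log2 signal for each probe set, rounded to 2 decimals. The culture batches had equal means in the deposited values, a step the methods do not describe, so that 2 residual degrees of freedom remain. No value column lacked a sample. Differences and tests came from limma 3.58.1 in R 4.3.3 on all 27342 probe sets, with the batch as a block, as the methods block for culture date, and Benjamini-Hochberg adjustment. The pairing comes from the labels, which name the culture date batch of each sample, and the replicate numbers equal it. The procedure was tested on simulated data in which probe sets varied independently, and its outcome for small changes is not given here. How it handles genes that vary together was not tested. The number of arrays limits the precision. The limma p-values rest on how well the 3 paired differences agree, with a variance moderated over all probe sets.

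The members and lists were chosen with earlier results of these data known, and the function groups were completed after the values had been seen. Named were a fixed set of members, the 5 higher and 5 lower members with the smallest p and 1 direction in all batches, each called member, and up to 4 genes of each related list, and others are named as examples chosen after their values were seen. Names come from the platform annotation, promoters from RefSeq (GRCr8), and the coordinates printed are of that build only. Protein sequences were not used here. Alternatives were no batch term, the methods' 2-way test, quantile normalization, centred medians, filters on signal, trend and robust options, each replicate left out, and the mean of probe sets.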

Additional observations from a re-analysis of the deposited data

How the results depend on the processing

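The count of 0 probe sets at an adjusted p under 0.05 was the same in every alternative fit (smallest adjusted p between 0.0609 and 1), and 915 had an unadjusted p under 0.05 in limma. Without the replicate block, which counts degrees of freedom that the equal batch means have used up, 4415 probe sets, 8 of the 53 genes (Mmp3, Mmp13, Adam23, Adam7, Adam11, Adamts3, Adamts12 and Timp1) and 8 genes of the related lists had an unadjusted p under 0.05. With only probe sets above background these were 406, 1 and 0, since fewer were tested. The methods' 2-way test called 1 of the 53 genes, Adamts12, and 2 of the related lists. Leaving out 1 replicate gave 645 to 1244 probe sets, 1 to 4 of the 53 genes, 0 to 2 at the criteria of the methods (Adam23 and Adamts1, without replicate 3) and 0 to 2 of the related lists, whose alternatives were chosen after seeing the data. Adamts1 ranged from -0.33 to 0.50 and turned without replicate 3. The count above background was 37 at the median of the silent organ genes and 18 at the median of all probe sets. The number of genes above 0 stayed between 24 and 30. Of the single genes, 9 combinations of gene and setting lost the call and 9 gained it with the same sign, besides Adamts1 without replicate 3, which gained it with the sign turned, and the cause was not tested. The replicate block changed no other call.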
